A study of Rattus norvegicus with 88 samples.

Results

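The let-7 family was followed in rat liver from 2 weeks to 104 weeks of age. The members were taken by name from the rat miRNA array: rno-let-7a, rno-let-7b, rno-let-7c, rno-let-7d, rno-let-7e, rno-let-7f, rno-let-7i and rno-miR-98 (the prefix for rat is left out below), which are 8 of the 677 miRNAs on the array and 8 of the 314 miRNAs detected on at least 1 array. The animals were untreated F344 rats, the inbred Fischer strain, of both sexes from the breeding colony of the National Center for Toxicological Research, housed as pairs, and the stage of the estrous cycle of the females was not determined. RNA from a small amount of frozen, homogenized liver tissue of 1 animal was labelled and hybridized to each of 88 1-colour Agilent arrays (45 females and 43 males). Animals of 2 weeks are called young here (5 arrays per sex), those of 5, 6, 8, 15 and 21 weeks adult (25 female and 24 male arrays) and those of 52, 78 and 104 weeks old (15 female and 14 male arrays). Each of these 9 ages had 5 arrays of either sex, but the males of 5 weeks and those of 104 weeks had 4. Replicates were separate animals, and how few there were limits how precisely a group is known. Since liver tissue was used without separating its cell types, fewer cells of a type and less miRNA per cell cannot be told apart.

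MicroRNAs of the let-7 family repress messenger RNAs that pair with their seed, the bases near the 5′ end that all members share, and several of their best known targets, such as Hmga2, Lin28b and Igf2bp family messages, are typical of fetal and fast growing tissue. In many animals let-7 accumulates as cells leave the proliferating state. The RNA-binding proteins LIN28A and LIN28B bind the loop of let-7 precursors, in part through a GGAG motif, and block their maturation, and in the developing liver this pathway is known for its role in the balance between growth and differentiation.

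The mature sequences are shown because the members are near-copies of one another, so that both their shared target pairing and the limits of telling them apart by hybridization can be read from them. The letters are those of RefSeq on the GRCr8 assembly, in which all 8 members were found, and the capitals mark the seed (bases 2 to 8).
let-7a: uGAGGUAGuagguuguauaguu
let-7b: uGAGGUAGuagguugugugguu
let-7c: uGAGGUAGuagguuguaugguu
let-7d: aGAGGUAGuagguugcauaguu
let-7e: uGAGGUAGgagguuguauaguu
let-7f: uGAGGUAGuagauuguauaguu
let-7i: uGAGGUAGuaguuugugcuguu
miR-98: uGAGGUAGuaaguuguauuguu

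Each sequence was 22 bases long and carried the seed GAGGUAG, which 9 of 693 mature rat miRNA names in the RefSeq table carry. The ninth is let-7g, which has no probe under that name on this array. Counted from 1 at the 5′ end, with the base of let-7a first, let-7c differed from let-7a by A19G, let-7e by U9G and let-7f by G12A. let-7b differed by A17G and A19G, and is therefore 1 base away from let-7c. let-7d differed by U1A and U16C, miR-98 by G11A and A19U, and let-7i by G12U, A17G, U18C and A19U. Position 19 was the most variable, with 4 of the 7 other members differing from let-7a there. Cross-hybridization between members that differ by 1 base was not measured here.

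In the RefSeq table the loci of the 8 members are spread over 6 chromosomes, and several of them lie beside other miRNA genes. let-7c has 1 locus on chromosome 11 (Mirlet7c1), which follows Mir99a after 639 bases and precedes Mir125b2, and another on chromosome 7 (Mirlet7c2), which lies 320 bases before Mirlet7b. let-7a is encoded beside Mir100 and Mir125b1 on chromosome 8 and again on chromosome 17, where 1 let-7a locus, 1 let-7f locus and the let-7d locus follow each other with 274 and 1670 bases between them. let-7e lies between Mir99b and Mir125a on chromosome 1, let-7i alone on chromosome 7, and the second let-7f locus 520 bases before Mir98 on chromosome X. The array signal of a member sums its loci. The 2 precursors of let-7c illustrate this, since the same mature arm (capitals) sits in hairpins with different loops; they lie at chr11:29688112-29688205 and chr7:118683623-118683717 of GRCr8, both on the plus strand.
Mirlet7c1: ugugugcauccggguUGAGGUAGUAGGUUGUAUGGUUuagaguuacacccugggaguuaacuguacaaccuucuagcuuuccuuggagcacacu
Mirlet7c2: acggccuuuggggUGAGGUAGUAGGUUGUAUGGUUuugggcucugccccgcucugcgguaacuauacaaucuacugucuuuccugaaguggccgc

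The letters GGAG, searched on the given strand only, were found in 8 of the 10 let-7 family hairpins in the table and in 172 of all 419 hairpins there (41.1%). Mirlet7c1 holds them and Mirlet7c2 and Mir98 do not, and the Mirlet7b hairpin was not used here. Such a match is a description of the letters and not of binding.

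All 8 members were detected on all 88 arrays, each by 2 probe sequences with 10 spots apiece. The total gene signal of an array, a background-subtracted linear intensity, was divided by that array's 75th percentile over the 314 expressed miRNAs, and this ratio is called the normalized intensity. The 75th percentile itself ranged from 28.1 to 289 between arrays, and 134 to 255 miRNAs were detected per array. The choice of reference mattered at 2 weeks and, for some comparisons, at later ages, as is shown with the values. A member was called different where limma gave a Benjamini-Hochberg adjusted p under 0.05 over the 314 miRNAs and the difference was at least 1.5-fold.

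In males, let-7b and let-7c rose most from 2 weeks to adulthood. The normalized intensity of let-7b was 7.86, 7.84, 6.98, 7.47 and 7.41 on the 5 arrays of 2-week males and ranged from 14.8 to 35.3 (median 23.0) on the 24 adult arrays. Every adult male lay above every 2-week male, as was also the case for let-7c and let-7i. The difference was 1.61 ± 0.12 on the log2 scale (SE), which is 3.06-fold with a 95% interval of 2.57 to 3.64 (limma, adjusted p = 2.68e-15). let-7c was 13.1, 11.9, 10.4, 12.5 and 12.1 in 2-week males and 16.4 to 48.3 (median 33.4) in adult males, again without overlap. Its log2 difference was 1.40 ± 0.15, or 2.64-fold (2.14 to 3.25, adjusted p = 4.29e-11). Non-overlap of young and adult males was seen for 29% of the 314 miRNAs.

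let-7a, let-7f and miR-98 also rose in males, by less. let-7a was 39.9, 35.3, 36.9, 36.3 and 37.5 in 2-week males and had a median of 64.7 in adult males (log2 difference 0.76 ± 0.12, adjusted p = 2.47e-07). One adult male, of 6 weeks, lay below all the 2-week males at 31.9, and the other 23 lay above them. let-7f, which followed let-7a most closely over the groups, differed by 0.72 ± 0.12 and miR-98 by 0.65 ± 0.10 on the log2 scale. let-7d (0.58 ± 0.10) and let-7i (0.47 ± 0.07) had adjusted p-values of 9.84e-07 and 1.34e-07 but stayed under 1.5-fold. let-7e, whose 2-week values of 2.49, 2.07, 2.37, 2.08 and 2.10 lay inside the adult range of 1.36 to 3.26, differed by 0.12 ± 0.13 (adjusted p = 0.522). Thus 5 of 8 members were called higher in adult males, where 29.9% of the 314 miRNAs were called higher. The 314 include miRNAs that were undetected on some arrays. The 103 miRNAs detected on every array, as all members were, had a median log2 difference of 0.99 in males, against 0.68 for the members.

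In females the same comparison called 1 of 8 members, against 22.9% of the 314 miRNAs called higher. let-7b was 12.5, 13.8, 13.6, 11.4 and 13.5 on the 2-week arrays and 13.7 to 33.8 (median 20.1) on the 25 adult arrays. The adult arrays lay above all 2-week arrays in 24 of 25 cases, and the log2 difference was 0.68 ± 0.15 (1.60-fold, 1.30 to 1.98, adjusted p = 0.000172). let-7c had 2-week values of 19.6, 20.7, 19.1, 17.5 and 20.0 and an adult median of 28.3, a log2 difference of 0.51 ± 0.14 (adjusted p = 0.00215) that fell short of 1.5-fold. let-7f (0.47 ± 0.12), miR-98 (0.39 ± 0.08), let-7d (0.32 ± 0.12) and let-7a (0.32 ± 0.12) had adjusted p-values between 0.000126 and 0.0296, also under 1.5-fold. let-7i (0.15 ± 0.11) and let-7e (-0.12 ± 0.14) did not pass the adjusted p. For no member were the young and adult females free of overlap, as 24.5% of the 314 miRNAs were.

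Between 2 weeks and old age, 5 of 8 members were called higher in males and 3 of 8 in females, where 28.7% and 25.5% of the 314 miRNAs were. In males these were let-7b (1.85 ± 0.13 on the log2 scale), let-7c (1.80 ± 0.16), let-7a (0.87 ± 0.12), let-7f (0.81 ± 0.12) and let-7d (0.69 ± 0.10). In females they were let-7b (0.94 ± 0.16), let-7c (0.82 ± 0.15) and let-7f (0.61 ± 0.12). These counts and several of the directions depended on the reference used for the scaling.

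**Figure D1:**
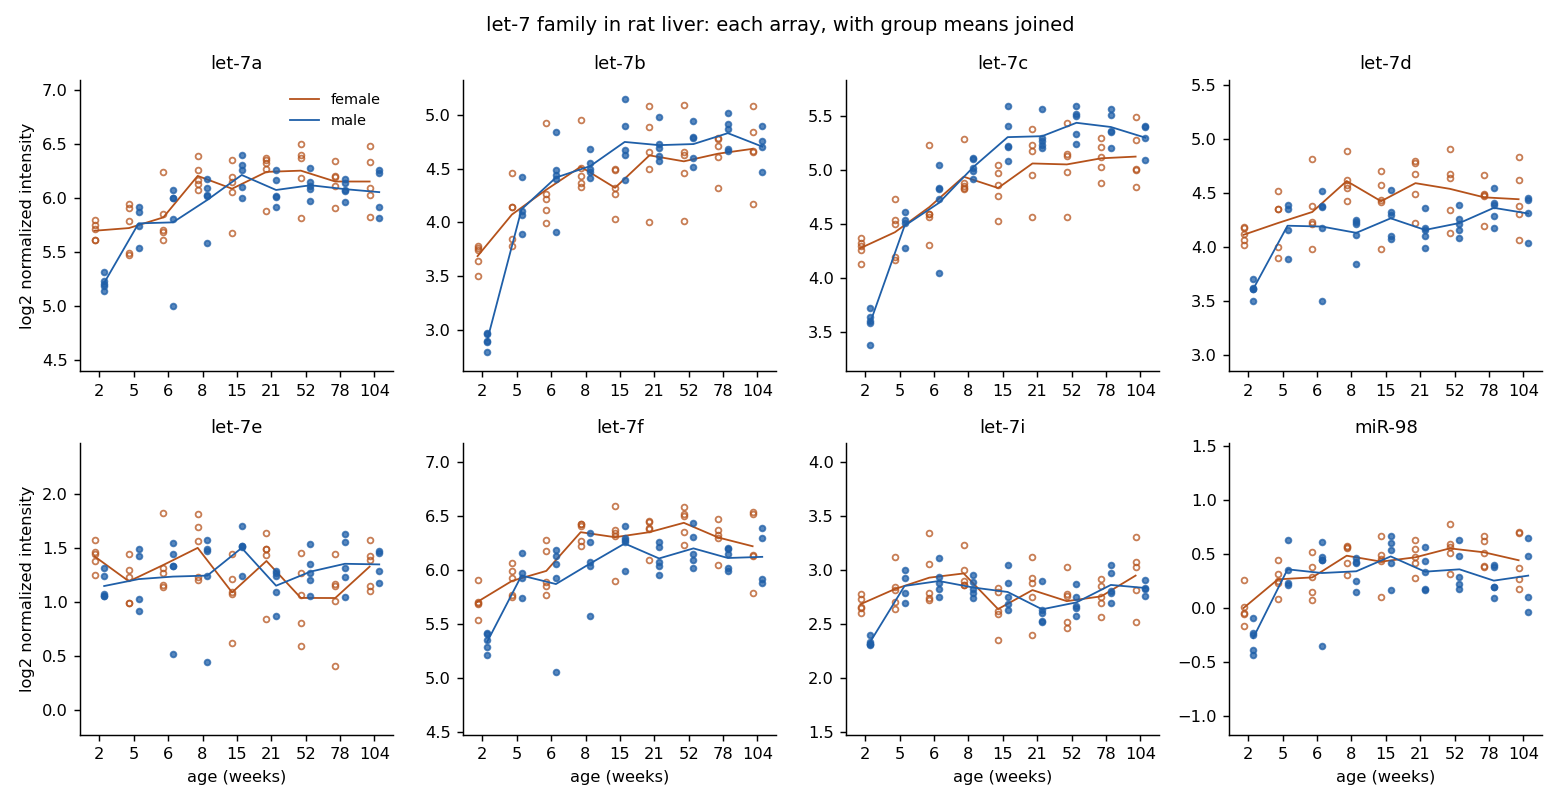
Log2 normalized intensity of each let-7 family member (8 panels) against age in weeks, with ages evenly spaced rather than to scale. Open points are female arrays, filled points male arrays, and lines join group means; every panel covers the same log2 span. The 2-week males lie below all later males for let-7b and let-7c, and let-7e shows no such step.

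The direction of several of these differences depended on the reference. With the values above, the 103 miRNAs detected on every array shifted from young to adult by a median of 0.52 in females and 0.99 in males on the log2 scale, and the members' own medians, 0.35 and 0.68, were smaller than that. When the 75th percentile was taken instead over those 103 miRNAs, their median shift was -0.14 in females and -0.13 in males, and let-7a (-0.36 ± 0.08), let-7d (-0.54 ± 0.10), let-7e (-0.99 ± 0.13), let-7f (-0.40 ± 0.09), let-7i (-0.65 ± 0.11) and miR-98 (-0.47 ± 0.10) turned negative in males. let-7b (0.50 ± 0.10) and let-7c (0.29 ± 0.11) stayed positive there with adjusted p-values of 3.21e-05 and 0.0223, both under 1.5-fold. In females 7 of 8 members were then lower in adults, the exception being let-7b at 0.03 ± 0.12. With this reference the calls were let-7e in females and let-7e and let-7i in males, all lower, against 25.8% and 33.4% of the 314 miRNAs. From young to old with this reference, 2 of 8 members were called higher in males, let-7b (0.74 ± 0.10) and let-7c (0.69 ± 0.11), and 2 lower, let-7e (-0.93 ± 0.14) and let-7i (-0.64 ± 0.12), where 9.87% of the 314 miRNAs were higher and 33.8% lower. The male differences of let-7a (-0.23 ± 0.09), let-7d (-0.42 ± 0.11) and let-7f (-0.30 ± 0.10) turned negative. In females 0 members were called higher and 2 lower, let-7e (-1.12 ± 0.15) and let-7i (-0.71 ± 0.15), where 7.96% were higher and 30.3% lower, and let-7f stood at -0.22 ± 0.06. Over the 5 references and background corrections tried, the male difference was above 0 in 5 of 5 for let-7b (0.50 to 2.80) and let-7c (0.29 to 2.59), and in 3 of 5 for let-7a (-0.42 to 1.95).

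**Figure D2:**
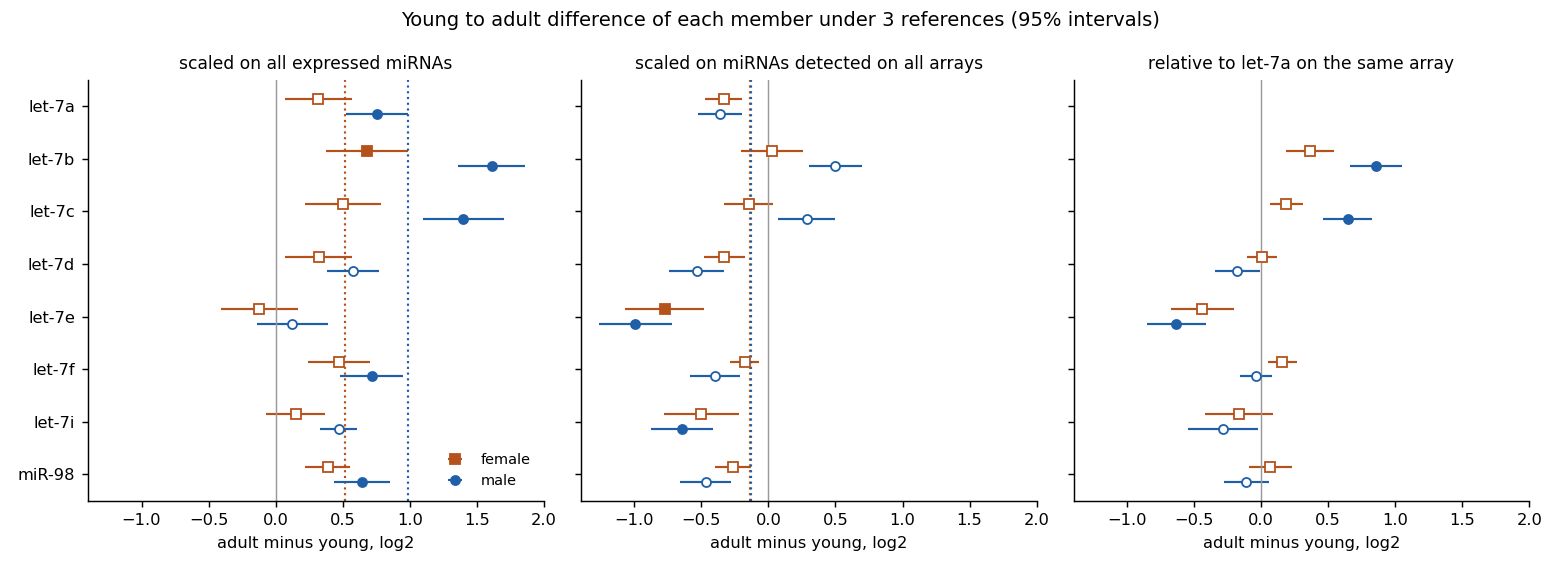
Adult minus young log2 difference of each member with its 95% interval, in females (squares) and males (circles); filled symbols passed the adjusted p of 0.05 and 1.5-fold. The left and middle panels use the 2 references for the 75th percentile, with dotted lines at the median shift of the miRNAs detected on all arrays, and the right panel gives each member relative to let-7a. let-7b and let-7c stand to the right of the other members in all panels, and let-7e to the left.

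The family's share of the summed signal of an array, taken over the array's total signal, was lower in adults than at 2 weeks in both sexes. In males it was 13.1% ± 0.499 (SD, n = 5) at 2 weeks, 10.9% ± 1.06 in adults (n = 24) and 11.6% ± 0.661 in old animals (n = 14). In females it was 13.0% ± 0.557 (n = 5), 11.2% ± 0.577 (n = 25) and 11.4% ± 0.754 (n = 15). The share sums probes whose brightness per molecule can differ, and it is given as a description without a test.

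Within an array, the ratio of a member to let-7a does not change with the scaling factor, so the members were also compared with each other in this way, a comparison added after the values were known. Relative to let-7a, let-7b stood at -2.31 ± 0.09 (log2, SD, n = 5) in 2-week males and -1.45 ± 0.21 in adult males (n = 24), and let-7c at -1.63 ± 0.12 and -0.99 ± 0.20. For both, every adult male array lay above every 2-week male array, and let-7e moved the other way, from -4.07 ± 0.08 to -4.70 ± 0.22, also without overlap. The fitted differences were 0.86 ± 0.10 for let-7b (adjusted p = 3.22e-10), 0.64 ± 0.09 for let-7c (adjusted p = 6.35e-08) and -0.63 ± 0.11 for let-7e (adjusted p = 4.31e-06), with limma over the 102 other miRNAs detected on all arrays. These 3 of 7 members passed 1.5-fold, 2 higher and 1 lower, where 20.6% of the 102 were higher and 14.7% lower. Quantile normalization and normexp background correction, which are not scalings by 1 factor, left let-7e at -0.26 and -0.20, under 1.5-fold and no longer called, and let-7b (0.97 and 0.79) and let-7c (1.05 and 0.59) called. The ratios of let-7f (-0.04 ± 0.06), miR-98 (-0.11 ± 0.08), let-7d (-0.18 ± 0.08) and let-7i (-0.29 ± 0.13) to let-7a did not pass the adjusted p. miR-98 stood at 1.12 after quantile normalization, where it was called, and at 0.21 after normexp.

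In females the ratios of let-7b, let-7c and let-7e to let-7a moved in the same directions as in males. let-7b gained 0.36 ± 0.09 and let-7c 0.19 ± 0.06 on let-7a, and let-7e lost 0.44 (-0.44 ± 0.12), with adjusted p-values of 0.000517, 0.00637 and 0.00124, while let-7f gained 0.16 ± 0.05 (adjusted p = 0.0110), and none reached 1.5-fold (0 of 7, where 23.5% of the 102 miRNAs were called higher and 8.82% lower). After quantile normalization 3 of 7 were called, let-7b at 0.72, let-7c at 0.62 and miR-98 at 1.02, with let-7e at -0.17, and after normexp none was, with let-7b at 0.38, let-7c at 0.20 and let-7e at -0.09. From young to old females let-7e lost 0.78 (-0.78 ± 0.12, adjusted p = 6.12e-07), which did pass, as 14.7% of the 102 miRNAs did in that direction. Non-overlap of young and adult arrays held for let-7e in females, where 23.5% of the 102 miRNAs did not overlap, and for let-7b, let-7c and let-7e in males, where 18.6% did not.

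**Figure D3:**
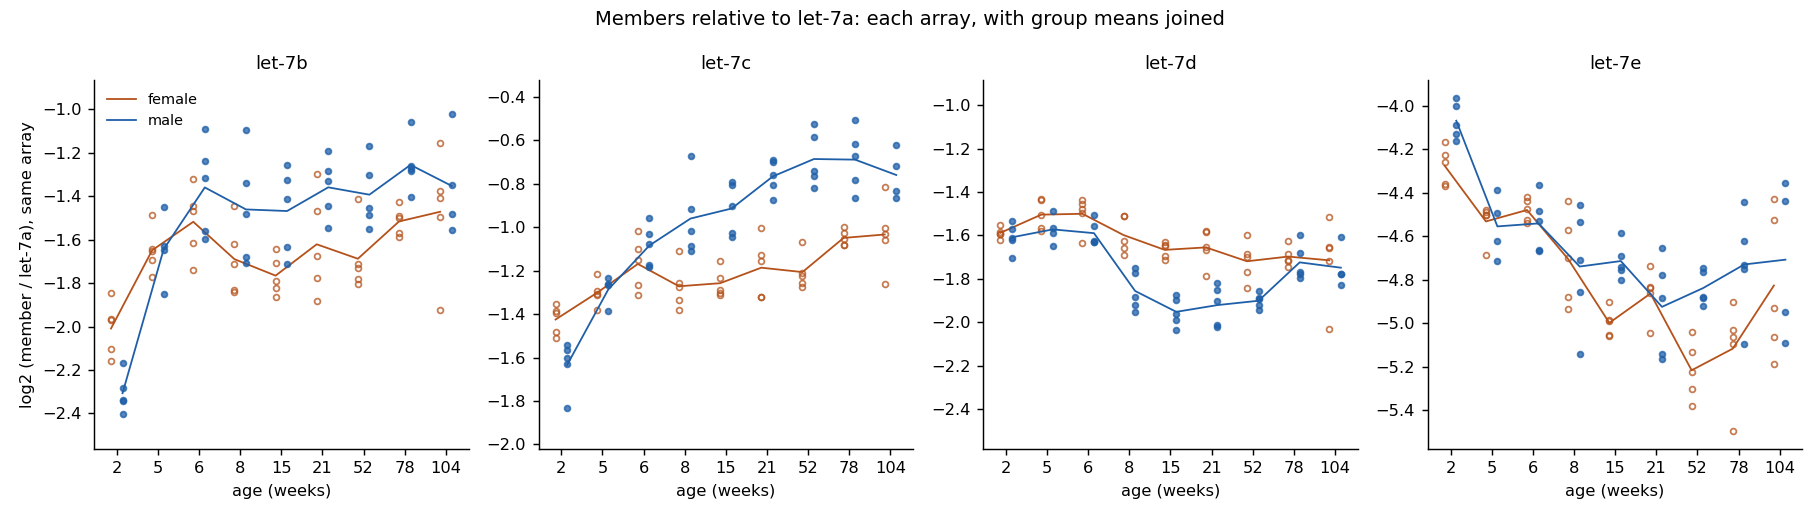
Log2 ratio of let-7b, let-7c, let-7d and let-7e to let-7a on the same array, against age in weeks (evenly spaced). Open points are females, filled points males, and lines join group means; each panel covers the same log2 span. The male line of let-7c starts below the female line at 2 weeks and lies 0.27 to 0.52 above it from 8 weeks on, and that of let-7d lies 0.18 to 0.29 below the female line from 8 to 52 weeks.

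Males and females of 2 weeks differed in the normalized intensity of let-7b and let-7c, with females higher. For let-7b the 5 female values, from 11.4 to 13.8, all lay above the 5 male values, from 6.98 to 7.86, a male minus female difference of -0.78 ± 0.16 on the log2 scale (limma, adjusted p = 5.73e-05). For let-7c the female values of 17.5 to 20.7 also lay above the male values of 10.4 to 13.1 (-0.69 ± 0.14, adjusted p = 4.76e-05). These were 2 of 8 members, where 7.64% of the 314 miRNAs were called lower in males at that age. let-7a (-0.48 ± 0.14), let-7d (-0.50 ± 0.14), let-7i (-0.35 ± 0.11) and let-7f (-0.37 ± 0.14) pointed the same way with adjusted p-values of 0.0267 or less and under 1.5-fold. In this comparison the 103 miRNAs present on every array had a median of -0.36. With the other reference the differences were -0.39 ± 0.14 for let-7b and -0.30 ± 0.11 for let-7c (adjusted p = 0.0317 and 0.0520) and no member was called, where 0.955% of the 314 miRNAs were lower in males, and relative to let-7a they were -0.30 ± 0.11 and -0.21 ± 0.07 (adjusted p = 0.0954 and 0.0777).

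The change from young to adult was larger in males than in females for let-7b, let-7c and let-7a. The interaction, male change minus female change, was 0.93 ± 0.20 for let-7b (adjusted p = 9.39e-05), 0.89 ± 0.21 for let-7c (adjusted p = 0.000367) and 0.44 ± 0.17 for let-7a (adjusted p = 0.0469), so that 3 of 8 members passed where 27.1% of the 314 miRNAs did. The other 5 members had interactions between 0.24 and 0.32 that did not pass. The count depended on the processing. It was 5 after quantile normalization, 5 with runs of arrays by scan time as a block, and 1 with the 75th percentile over all miRNAs of the array. let-7b and let-7c passed also relative to let-7a, at 0.50 ± 0.13 (adjusted p = 0.00472) and 0.46 ± 0.10 (adjusted p = 0.00189), as 2 of 7 members where 3.92% of the 102 miRNAs were called in that direction. They passed with the other reference as well, at 0.47 ± 0.15 and 0.43 ± 0.14 (adjusted p = 0.0159 for both), while let-7a stood at -0.02 ± 0.11. After normexp background correction no member passed, relative to let-7a or otherwise. The 3 became 2 when any 1 of 34 of the 88 arrays was left out.

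After 2 weeks, let-7c and let-7b were the 2 of 8 members that still differed between ages by 1.5-fold, in both sexes, where 22.6% of the 314 miRNAs in males and 29.9% in females had at least 1 called pair of ages without the 2-week group. In males let-7c was 22.4 ± 2.17 (SD, n = 4) at 5 weeks, 26.5 ± 6.13 at 6 weeks, 32.6 ± 1.78 at 8 weeks and 39.7 ± 5.67 at 15 weeks, and stayed between 39.4 and 43.4 from 21 to 104 weeks (n = 5, and 4 at 104 weeks). let-7c was called in 18 of the 36 pairs of male ages, 10 of them without the 2-week group, for example at 15 against 5 weeks (log2 0.82 ± 0.13, adjusted p = 5.57e-06). let-7b was called in 12 pairs, 4 of them without the 2-week group, among them 15 against 5 weeks at 0.62 ± 0.13. In females let-7c went from 21.6 ± 3.63 at 5 weeks to 33.9 ± 6.85 at 21 weeks (0.64 ± 0.16, adjusted p = 0.00264) and 35.2 ± 6.51 at 104 weeks. These pairs of ages are given with 1 reference only. Relative to let-7a (log2, SD), let-7c in females stood at -1.30 ± 0.06 at 5 weeks, -1.19 ± 0.14 at 21 weeks and -1.03 ± 0.16 at 104 weeks. In males it stood at -1.29 ± 0.07 at 5 weeks and -0.91 ± 0.12 at 15 weeks.

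The other members differed from one age to another by 1.5-fold only in pairs with the 2-week group, or in none. In males let-7a, let-7f, let-7d and miR-98 were called in 6, 7, 5 and 6 such pairs and let-7e and let-7i in none, and in females let-7f was called in 5 and the remaining 5 members in none. By the F test over the 9 ages with a called pair, 6 of 8 members differed in males and 3 of 8 (let-7b, let-7c and let-7f) in females, where 54.1% and 57.3% of the 314 miRNAs did. These counts depended on the processing. They were 2 in males and 5 in females after normexp, and 8 and 5 with the 75th percentile over all miRNAs of the array, and the female count was 5 without the 52-week female replicate 6. In the order of ages, neighbouring ages after 2 weeks did not differ beyond an adjusted p of 0.05 for any member in males, and in females only let-7f did, between 6 and 8 weeks (64.3 ± 10.1 and 81.9 ± 5.51, n = 5 each).

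From adult to old, 0 of 8 members were called in either sex, where 4.46% of the 314 miRNAs were called in females and 5.1% in males. let-7c came closest, with a normalized intensity of 28.2 ± 6.49 (n = 25) in adult and 34.5 ± 5.57 (n = 15) in old females (log2 0.31 ± 0.09, adjusted p = 0.0219) and of 32.6 ± 8.06 (n = 24) and 41.8 ± 4.13 (n = 14) in males (0.40 ± 0.10, adjusted p = 0.00599). No other member had an adjusted p under 0.05 in either sex with this reference, and the remaining differences lay between -0.17 and 0.26. With the other reference 0 members were called as well, but the members with an adjusted p under 0.05 changed. let-7c then stood at 0.13 ± 0.06 in females (adjusted p = 0.131) and 0.41 ± 0.07 in males (adjusted p = 6.07e-05). let-7b in males (0.24 ± 0.07, adjusted p = 0.0114) and let-7e in females (-0.35 ± 0.10, adjusted p = 0.00931) were then under 0.05. Relative to let-7a, let-7c gained 0.28 ± 0.06 in males (adjusted p = 0.000440) and 0.14 ± 0.04 in females (adjusted p = 0.00423), and let-7e lost 0.34 (-0.34 ± 0.08, adjusted p = 0.000605) in females, all under 1.5-fold. let-7d in females (-0.13 ± 0.04) and miR-98 in males (-0.18 ± 0.06) also had adjusted p-values under 0.05 relative to let-7a. No interaction of sex with this change passed for a member.

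Between the sexes, the balance of let-7c and let-7d to let-7a differed in adult and old animals by less than 1.5-fold. At 52 weeks the log2 ratio of let-7c to let-7a was -1.27, -1.21, -1.26, -1.07 and -1.22 in females and -0.53, -0.76, -0.74, -0.58 and -0.82 in males. Every male lay above every female at this age (male minus female 0.52 ± 0.07, adjusted p = 2.34e-08), and the same held at 15, 21 and 78 weeks (0.34, 0.42 and 0.36). At 8 and 104 weeks the difference was 0.31 and 0.27 with overlapping arrays, and at 5 and 6 weeks it was 0.02 and 0.09. Smaller sets of ages had an adjusted p under 0.05 for let-7b (0.30 at 15 and 0.30 at 52 weeks), let-7e (0.38 at 52 and 0.39 at 78 weeks) and let-7f (-0.19 at 15 weeks). Male arrays all above female arrays were seen for 13.7% of the 102 miRNAs at 52 weeks and for 7.84% to 9.8% at 15, 21 and 78 weeks.

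let-7d, the member with another first base, went the other way. At 15 weeks its ratio to let-7a was -1.64, -1.63, -1.70, -1.71 and -1.65 in females and -1.99, -2.04, -1.88, -1.96 and -1.90 in males (-0.29 ± 0.06, adjusted p = 0.000104). All male arrays lay below all female arrays at 8, 15, 21 and 52 weeks, which held for 1.96%, 16.7%, 7.84% and 8.82% of the 102 miRNAs, and the differences were -0.26, -0.29, -0.27 and -0.18. At 2, 5 and 6 weeks and at 78 and 104 weeks the difference lay between -0.09 and -0.02. The arrays were also split into scans, here runs of arrays separated by gaps of over 8 hours between the scan times of the scanner files, which are not batches named in the labels. Within scans 2, 3, 4 and 5, over animals of 8 to 104 weeks, the let-7c ratio was 0.35 to 0.41 higher and the let-7d ratio 0.18 to 0.20 lower in males.

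The miRNAs encoded beside let-7 loci were examined as a list of 5: miR-99a and miR-125b-5p, which flank let-7c on chromosome 11, miR-100, which with a further copy of miR-125b flanks let-7a on chromosome 8, and miR-99b and miR-125a-5p, which flank let-7e on chromosome 1. In males 3 of 5 (miR-99a, miR-125b-5p and miR-100) were called higher in adults than at 2 weeks, where 29.9% of the 314 miRNAs were, and 0 of 5 in females, where 22.9% were. Apart from the ratios to let-7a, calls of these 5 miRNAs are given with the reference over the 314 miRNAs only. With the other reference let-7a itself was lower in adult (-0.36 ± 0.08) and old males (-0.23 ± 0.09) than at 2 weeks. Relative to let-7a none of the 3 was called in males, at 0.40 ± 0.16 for miR-99a (adjusted p = 0.0332), 0.57 ± 0.17 for miR-125b-5p (adjusted p = 0.00347) and 0.24 ± 0.19 for miR-100 (adjusted p = 0.262). Of the 102 miRNAs, 20.6% were called higher in that comparison. miR-99a was 5.79 ± 0.221 (SD, n = 5) in 2-week males, 13.7 ± 4.88 in adult males (n = 24) and 23.8 ± 3.26 in old males (n = 14), and both steps passed with the reference over the 314 miRNAs (1.16 ± 0.20 and 0.87 ± 0.14, adjusted p = 3.64e-06 and 1.27e-05). Relative to let-7a it stood at -2.68 ± 0.07, -2.28 ± 0.42 and -1.53 ± 0.19 (log2, SD) in these 3 groups. The step from adult to old passed upwards for 3.82% of the 314 miRNAs in males. miR-125b-5p did likewise (1.33 ± 0.21 and 0.81 ± 0.14), and for both the change from adult to old differed by sex (interactions of 0.63 ± 0.17 and 0.61 ± 0.17, adjusted p = 0.0401 each), which 1.59% of the 314 miRNAs did. From young to old, miR-99a, miR-125b-5p and miR-100 were called higher in males, where 28.7% of the 314 miRNAs were. In females miR-99a was called higher (0.61, limma, adjusted p = 0.00106), where 25.5% were. miR-99b was called lower in old than in young females (-1.04, limma, adjusted p = 0.00675), with undetected values at the floor.

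With the 75th percentile over the 314 miRNAs, both chromosome 11 neighbours of let-7c were called higher in males at 15, 21, 52, 78 and 104 weeks. let-7c itself was not called there. At these ages 3.18%, 2.55%, 2.55%, 1.27% and 4.14% of the 314 miRNAs were called higher in males. At 15 weeks the median male minus female difference of the 8 members was 0.14 with this reference and -0.05 with that over the 103 miRNAs. Relative to let-7a (log2, SD), miR-99a then stood at -2.04 ± 0.10 in males and -2.57 ± 0.04 in females. miR-125b-5p stood at -2.19 ± 0.25 and -2.74 ± 0.12. At 2 weeks miR-125b-5p was called lower in males with the reference over the 314 miRNAs (-0.67 ± 0.13, adjusted p = 2.07e-05), as let-7c was. At that age 7.64% of the 314 miRNAs were called lower in males. miR-99a differed by -0.46 ± 0.13 (adjusted p = 0.00319), under 1.5-fold. As log2 ratios to let-7a (SD), miR-125b-5p stood at -2.95 ± 0.12 in 2-week males and -2.76 ± 0.09 in 2-week females. miR-99a stood at -2.68 ± 0.07 and -2.70 ± 0.06. With the reference over the 103 miRNAs, let-7c was not called at 2 weeks (-0.30 ± 0.11, adjusted p = 0.0520). At 52 weeks miR-99a stood at 27.0 ± 0.959 in males and 13.2 ± 1.70 in females (1.04 ± 0.13 on the log2 scale, adjusted p = 8.58e-10), miR-125b-5p at 25.2 ± 3.11 and 11.4 ± 1.69 (1.15 ± 0.13, adjusted p = 5.30e-11), and let-7c at 43.4 ± 4.29 and 33.7 ± 7.08 (0.39 ± 0.14, adjusted p = 0.0684). miR-100 was called at 21, 52 and 104 weeks. miR-99b and miR-125a-5p, beside let-7e, were not called at any age between the sexes. Relative to let-7a, miR-125a-5p was lower in adults than at 2 weeks in both sexes (-0.60 ± 0.18 in females and -0.96 ± 0.19 in males). let-7e was also lower relative to let-7a in both sexes, at -0.44 in females, under 1.5-fold, and -0.63 in males. From young to adult, 8.82% of the 102 miRNAs in females and 14.7% in males were called lower. The male let-7e value was -0.26 after quantile normalization and -0.20 after normexp, where it was not called. These comparisons between the sexes share 1 estimate of the spread over all 88 arrays.

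**Figure D4:**
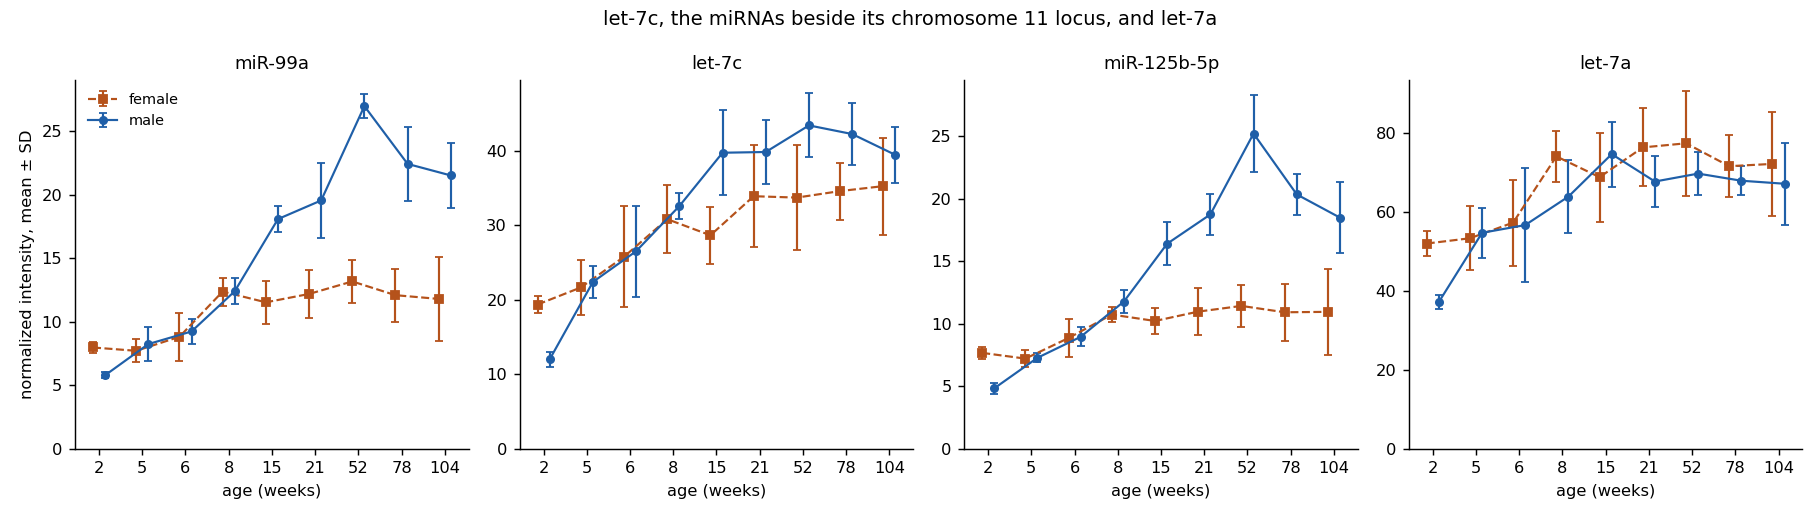
Normalized intensity (linear, from 0) of miR-99a, let-7c, miR-125b-5p and let-7a against age in weeks (evenly spaced), with the mean and SD of 4 or 5 arrays per group; squares with dashed lines are females and circles with solid lines males. The sexes part from 15 weeks on for miR-99a and miR-125b-5p, by less for let-7c, and the let-7a bars overlap after 2 weeks.

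Of the 9 passenger strands of members on the array, which come from the other arm of the hairpin and are usually degraded, let-7d* was detected on 75 of 88 arrays, let-7a-1* on 13, let-7b* on 2, let-7e* and let-7f-2* on 1 each, and let-7c-1*, let-7f-1*, let-7i* and miR-98* on none. Where detected, let-7d* had a median normalized intensity of 0.0737 (0.0208 to 0.736). It was detected on 43 of 45 female and 32 of 43 male arrays, with 2 of 5 males at 8 weeks and 2 of 5 at 15 weeks. The male minus female difference of let-7d* was -1.68 ± 0.70 and -1.60 ± 0.70 on the log2 scale at those ages, with undetected values at the floor, and did not pass (adjusted p = 0.196 and 0.128). let-7a-1* was called over the 9 ages in females (F test, adjusted p = 0.0294), as 57.3% of the 314 miRNAs were, and not in males (adjusted p = 0.742). Its undetected values were at the floor here too. It was detected on 0 young, 3 adult and 6 old female arrays, at normalized intensities of 0.0213 to 0.0433 over all arrays where it was detected, near the lowest measured value of 0.0120, and none of its differences between age classes passed.

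Over the 18 means of age and sex, let-7a and let-7f had a Pearson correlation of 0.97, as had let-7b and let-7c, while let-7e correlated with the other members between -0.01 and 0.47. The 5 miRNAs outside the family whose group means were most like the mean of the 8 members, of 95 detected on all arrays, were miR-497, miR-195, miR-10a-5p, miR-122 (the most abundant hepatocyte miRNA) and miR-140, with r from 0.95 to 0.97. The least like were miR-17-5p (-0.62), miR-322 (-0.64) and miR-335 (-0.83). These values are descriptions, since all points share the arrays and the same 75th percentile, whose shift at 2 weeks enters every one of them.

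Markers of liver cell types were read on the same scale, on which the 103 miRNAs detected on all arrays had a median shift of 0.52 (log2) in females and 0.99 in males from young to adult. The hepatocyte miRNAs miR-122, miR-192 and miR-194 were detected on every array, and their summed normalized intensity was 399 to 674 at 2 weeks and 634 to 1289 in adults. The sum of 4 leukocyte miRNAs on the array was 2.93 to 5.60 at 2 weeks, 5.63 to 13.5 in adults and 8.60 to 30.0 in old animals, and that of miR-451 and miR-144, which mark red blood cells, 3.18 to 6.26, 4.17 to 21.1 and 6.45 to 28.0. The biliary list (the miR-200 family) had a median of 3.94 at 2 weeks, 1.91 in adults and 1.43 in old animals in females, and of 2.89, 2.83 and 1.85 in males. Skeletal muscle miRNAs had a median of 3.23 in 2-week females, 0.0438 in 2-week males and 0.307 or less in adult groups, and reached 65.3 in 1 adult male. Endothelial and smooth muscle miRNAs stayed between 20.2 and 38.9, pancreatic ones at or below 2.71, and miR-9 and miR-124 (brain) were detected on no array. Their part in the differences of the members was not tested.

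The young to adult difference was also compared within scans and between probes. The 2-week males lay in scans 3, 4 and 5 (3, 1 and 1 arrays), and within them let-7b differed by 1.59, 1.63 and 1.45 and let-7c by 1.42, 1.31 and 1.27 on the log2 scale. The 2-week females lay in scans 2, 4 and 5 (1, 2 and 2 arrays), where let-7b differed by 0.63, 0.72 and 0.67. Relative to let-7a, let-7b gained 0.70 to 0.95 and let-7c 0.52 to 0.64 in males within scans, and let-7e lost between 0.58 and 0.65. Each member had 2 probe sequences, which gave differences 0.01 to 0.20 apart, the widest for let-7c in males (1.26 and 1.45).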

How the data were processed

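Total liver RNA was labelled with Cy3 and measured on Agilent arrays for rat miRNAs, 1 colour and 1 animal per array. Per the file headers, the deposited scanner files came from Agilent Feature Extraction 10.7.3.1 and hold the total gene signal, a background-subtracted linear intensity summed over the probes of a miRNA. The authors also deposited a table of normalized values, each the ratio of that signal to the array's 75th percentile, which served as an alternative. Here the 75th percentile was taken over the 314 miRNAs detected on at least 1 array (rank 236, with undetected values set to 1.84). Undetected values were set after scaling to the lowest measured normalized intensity (0.0120), and log2 was taken. Samples were grouped by the labelled age and sex. Groups were compared with limma 3.58.1 (lmFit and eBayes, R 4.3.3) with Benjamini-Hochberg adjustment over the 314 miRNAs. A call needed an adjusted p under 0.05 and 1.5-fold, interactions the adjusted p only, and age differences the F test and at least 1 called pair of ages. Comparisons of age classes used the animals of 1 sex, and those between the sexes used all 88 arrays. The ratio to let-7a was fitted over the 102 other miRNAs detected on all arrays. No column of another sample was used.

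The members and lists were chosen with earlier results of these data known. The genes named were the 8 members, their passenger strands, 5 miRNAs encoded beside them, the marker lists and the 5 miRNAs most like the family mean. The alternatives were other 75th percentiles, quantile normalization, normexp on the median signal (the scanner files used here hold no mean signal column), the mean processed signal, the deposited table, another minimum, a fit over the 103 miRNAs detected on every array, blocks of scan (arrays between gaps of over 8 hours in the files' scan times; the array by array processing batches of the study were not used here), slide, design version and replicate number, the methods' t-test, and leaving out each array. Replicate numbers were checked for pairing: deviations from group means correlated at 0.0532 on average over 525 pairs of arrays with the same number and at -0.00759 over 3131 pairs with different numbers, and the numbers were not taken to pair animals. The fits were tested on simulated data. Descriptions used Python 3.11.15, numpy 2.4.6, pandas 2.3.3 and scipy 1.17.1.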

Additional observations from a re-analysis of the deposited data

Results flagged for a closer look

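In 14 of 144 groups of 4 or 5 arrays, 1 array lay apart from the rest by Dixon's criterion, which chance alone meets in about 1 of 20 groups, and the 14 came from 6 arrays. The 6-week male replicate 5 was lowest of its group for let-7a (31.9), let-7e (1.43), let-7f (33.2) and miR-98 (0.782). The 21-week female replicate 6 was lowest for let-7a (59.1), let-7e (1.79) and let-7f (68.3). The 8-week male replicate 2 stood apart for let-7a at 48.1. The 6-week female replicate 1 stood apart for let-7b (30.4) and let-7e (3.55), the 8-week female replicate 4 for let-7b (30.9) and let-7c (38.9), and the 21-week male replicate 1 for let-7c (47.3) and let-7i (7.47). All these values are normalized intensities.

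The change from young to adult differed between the sexes, by the limma interaction term (male change minus female change, log2), for let-7a (0.44), let-7b (0.93) and let-7c (0.89), and relative to let-7a on the same array for let-7b (0.50) and let-7c (0.46).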

How the results depend on the processing

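Counts below are of members called. The deposited table, the mean processed signal, the fit over the 103 miRNAs detected on all arrays, the slide block and the methods' t-test (run for young to adult, adult to old and sex) changed no count. The other minimum gave 2 for the interaction, and the design version block 2 for the interaction and 3 for that relative to let-7a. With the replicate number as a block, the counts were those of the unblocked fits: 3 for age in females, 6 for age in males, 1 and 5 from young to adult in females and males, 2 for sex and 3 for the interaction, and relative to let-7a 3 from young to adult in males and 2 for the interaction, and no call changed. With scan as a block the interaction count was 5.

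Scaled on the 75th percentile of those 103 miRNAs, the counts were 2 for age in females, 2 for young to adult in males, 0 for sex and 2 for the interaction, and let-7a (-0.36), let-7e (-0.99), let-7f (-0.40), let-7i (-0.65) and miR-98 (-0.47) reversed from young to adult in males. Members not called in either setting also turned negative, let-7d (-0.54) in males and let-7a (-0.33), let-7c (-0.15), let-7d (-0.33), let-7f (-0.18), let-7i (-0.50) and miR-98 (-0.26) in females. Scaled on that of all miRNAs of the array, they were 5 and 8 for age in females and males, 7 and 8 from young to adult in females and males, 7 for sex and 1 for the interaction, and at 8 weeks the male minus female difference reversed for let-7a (1.17), let-7e (1.13), let-7f (1.10), let-7i (1.26) and miR-98 (1.25), while uncalled let-7e turned positive from young to adult in females (0.65). Quantile normalization gave 7 for age in males, 2 from young to adult in females, 1 for sex, 5 for the interaction, and relative to let-7a 3 from young to adult in females and 3 for the interaction, and reversed let-7a in females (-0.67), let-7a (-0.42), let-7e (-0.68), let-7f (-0.81) and let-7i (-0.60) in males, and miR-98 relative to let-7a in males (1.12). Uncalled members also changed sign, let-7d (-0.39) in males and let-7c (-0.05), let-7d (-0.17), let-7f (-0.45) and let-7i (-0.52) in females, and relative to let-7a let-7d in males (0.03) and let-7i in females (0.15). Normexp gave 5 and 2 for age in females and males, 0 and 2 from young to adult in females and males, 1 for sex and 0 for the interaction, and relative to let-7a 2 from young to adult in males, 2 for sex and 0 for the interaction, with let-7e at 8 weeks reversed (0.64). From young to adult, uncalled let-7d (-0.05), let-7e (-0.13) and let-7i (-0.09) in males, let-7a (-0.20), let-7d (-0.12), let-7f (-0.07) and let-7i (-0.24) in females, and miR-98 relative to let-7a in males (0.21) changed sign. The cause was not tested.

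Leaving out each array in turn gave 3 to 5 for age in females (5 without the 52-week female replicate 6), 6 to 7 for age in males, 1 and 5 to 6 from young to adult in females and males, 2 for sex, 2 to 4 for the interaction, and relative to let-7a 3 for young to adult in males, 2 to 3 for the interaction and 0 to 1 for the interaction from adult to old (1 without the 104-week female replicate 1). Array signals give no read depth, and the number of animals limits the precision.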
